A study of Mus musculus with 3 samples.

Results

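The genes of classical cadherins and of the catenins that bind them were followed in cultured mouse ovarian surface epithelium, a mesothelium-like layer around the ovary. The members were Cdh1, Cdh2, Cdh3, Cdh6, Cdh11, Ctnna1, Ctnnb1, Ctnnd1 and Jup, taken by name from the gene annotation of an array of culture 1, where Ctnna1, Ctnnb1 and Ctnnd1 stand under the older names Catna1, Catnb and Catns. The names found 12 of 20371 probes and 8 of the 9 genes, among 8796 genes named on the array. No probe carried the name Cdh6. Cdh11, Ctnnb1, Ctnnd1 and Jup had 2 probes each, and every probe was treated as a measurement of its own. All 12 probes passed the filter on dim spots.

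A classical cadherin is a membrane protein whose extracellular part binds the same cadherin on a neighbouring cell when calcium is present. Its cytoplasmic tail binds beta-catenin or plakoglobin, which hold alpha-catenin and through it the actin cytoskeleton, while p120-catenin binds closer to the membrane and keeps the cadherin at the cell surface. In many epithelial-to-mesenchymal transitions E-cadherin is replaced by N-cadherin, but ovarian surface epithelium is known for carrying N-cadherin already in its epithelial state.

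Mesenchymal cells were held for 1 week in 15% fetal bovine serum, and epithelial cells were kept in 2.5% fetal bovine serum. Both came from each of 3 cultures of ovarian surface epithelium of virgin C57/Bl6 females that had been superovulated with PMSG and hCG, mated and killed 12 hours post-coitum. From each culture the mesenchymal and the epithelial RNA shared 2 Agilent arrays with the dyes exchanged, which gave 6 arrays, and a culture counted as 1 replicate (n = 3). Serum concentration and phenotype changed together, so their effects cannot be told apart. The cells were primary cultures, and how many animals went into each was not given in the sources used here. A confluence of 80% was given for all 3 cultures.

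Over all 20185 probes tested with limma, 1130 were higher (5.6%) and 1142 lower (5.66%) in mesenchymal cells at a Benjamini-Hochberg adjusted p under 0.05, together 11.3%. Of the member probes, 2 of 12 passed, both lower. That is a share of 16.7%, and 1 probe fewer would put it below the share of all probes. The median log2 ratio of mesenchymal over epithelial RNA was 0.01 over the member probes and 0.00 over all probes. Every member probe exceeded the 95th percentile of the negative control spots in both RNAs on all 6 arrays, with a raw signal of at least 749 against percentiles of 195 to 383. All ratios take their direction from the dyes given in the deposited arrays' names.

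Markers of ovarian surface epithelium fixed as a list were measured for 8 genes, and all 8 exceeded the negative controls. None of their 11 probes was higher and 6 were lower in mesenchymal cells, led by Gpm6a, a membrane glycoprotein of mesothelium-like cells (log2 ratio -2.98 ± 0.22), and Msln, the mesothelin gene (-2.07 ± 0.27, SD, n = 3 each). Their summed intensity was 148812 to 179258 in mesenchymal cells and 302806 to 333292 in epithelial cells. These sums include saturated keratin spots. Krt7 A_65_P11627 was saturated for epithelial RNA on 6 arrays and Krt19 on 2, and Krt8 A_65_P02633 on 3 for each RNA. This called Krt8 probe, at -0.32, lay above 0 on 2 arrays. Summed markers of oviduct or other epithelium were at 6155 to 10063 in mesenchymal cells and 6333 to 10216 in epithelial cells, with 0 of 5 probes called. Sums for endothelium (5586 to 8317 in mesenchymal and 5233 to 8567 in epithelial cells), leukocytes (7904 to 12596 and 7650 to 13315), theca cells (3184 to 4042 and 3275 to 4084) and smooth muscle (10299 to 11787 and 10290 to 13630) overlapped too, and no probe of these lists was called. Granulosa cell markers summed to 19249 to 27963 in mesenchymal cells and 20415 to 31471 in epithelial cells, with 1 of 6 probes lower (Inhba). The Inhba probe lay above 0 on 3 arrays and below 0 on 3, with a dye effect (log2 Cy5 over Cy3) of -1.63. Germ cell markers did not overlap, at 15117 to 20253 in mesenchymal cells and 9680 to 12519 in epithelial cells, and 1 of their 5 probes was called. That probe was for Ddx4, a germ line helicase gene, with a log2 ratio of 1.66 ± 0.17 (SD, n = 3, adjusted p = 0.0003697). The germ cell probes of Gdf9, Dazl and Zp3 lay between -0.13 and 0.10 and were not called. The 6 called surface epithelium probes changed in the same direction as the called cadherin probes below, and the Ddx4 probe in the other. Their part in the cadherin values was not tested. In such bulk RNA, fewer cells that carry a transcript and less of it per cell cannot be told apart.

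Cdh11 and Cdh3 were the member genes with a probe past the threshold, and both had less RNA in mesenchymal cells. Cdh1 (E-cadherin) and Cdh2 (N-cadherin) had small positive log2 ratios that did not pass the threshold. Thus neither lower Cdh1 nor higher Cdh2 was called between these mesenchymal and epithelial cells.

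**Figure D1:**
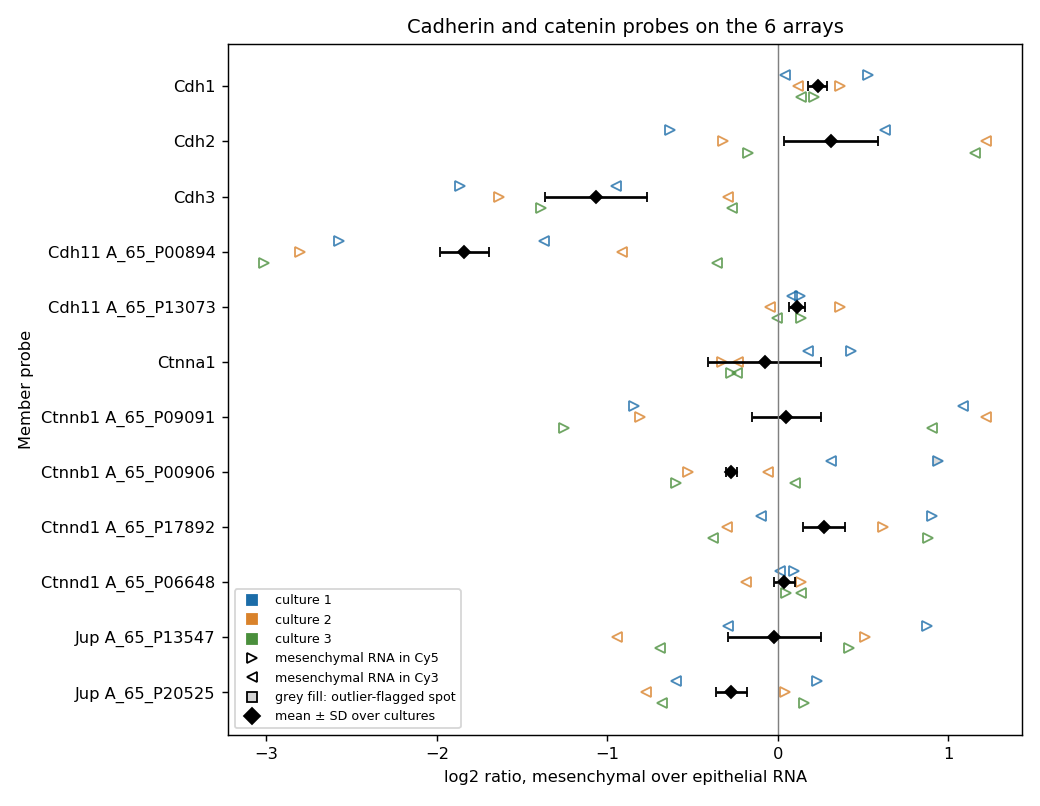
Log2 ratio of mesenchymal over epithelial RNA (horizontal axis) for each member probe (vertical axis), with an arrowhead for each of the 6 arrays coloured by culture and pointing by dye orientation, and a diamond with a bar for the mean ± SD over cultures. Cdh3 and the Cdh11 probe A_65_P00894 lie below 0 on all 6 arrays, Cdh1 lies above 0 on all 6, and Cdh2 and Ctnnb1 A_65_P09091 fall on both sides of 0 by orientation.

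Cdh3 encodes P-cadherin, a type I cadherin that forms epithelial adherens junctions. Its normalised intensity was 12490, 14444 and 12334 in mesenchymal cells of cultures 1, 2 and 3, against 33063, 28166 and 21939 in epithelial cells. The mesenchymal values lay close together and all were below the lowest epithelial value. The log2 ratio was -1.07 ± 0.30 (SD, n = 3, 95% confidence interval -1.36 to -0.77, adjusted p = 0.004118), or 2.09-fold more RNA in epithelial cells. By culture the log2 ratios were -1.40, -0.96 and -0.83. The arrays with mesenchymal RNA in Cy5 read -1.86, -1.64 and -1.39, and those with it in Cy3 read -0.95, -0.29 and -0.27. The direction was the same on all 6 arrays, but the size differed with the dye, and on the arrays with mesenchymal RNA in Cy3 alone the mean was -0.50 with an adjusted p of 0.06383.

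Cdh1 encodes E-cadherin, the main cadherin of most epithelia. Its normalised intensity was 1894, 1677 and 1771 in mesenchymal cells, against 1554, 1420 and 1569 in epithelial cells. All mesenchymal values were above all epithelial ones, by a small margin. The log2 ratio was 0.23 ± 0.06 (SD, n = 3), with a 95% confidence interval of 0.06 to 0.40 and an adjusted p of 0.09777. The interval did not reach values below 0, and the ratio was above 0 on all 6 arrays, with 0.04 as its lowest and 0.53 as its highest value. Without culture 1 the same probe passed the threshold at 0.21 (adjusted p = 0.03785), in a fit that gave every probe the same spread. It did not pass without culture 2 (adjusted p = 0.408) or without culture 3 (adjusted p = 0.3591).

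Cdh2 encodes N-cadherin, a type I cadherin of mesenchymal and neural cells. Its normalised intensity was 15384, 18815 and 14766 in mesenchymal cells, against 15433, 13780 and 10505 in epithelial cells. The groups overlapped, since the epithelial RNA of culture 1 was above 2 of the mesenchymal values. The log2 ratios were 0.00, 0.45 and 0.49 in cultures 1, 2 and 3, with a mean of 0.31 ± 0.27 (SD, n = 3, 95% confidence interval 0.03 to 0.59, adjusted p = 0.162). Its sign followed the dye. The 3 arrays with mesenchymal RNA in Cy5 read -0.63, -0.32 and -0.18, and the 3 with it in Cy3 read 0.63, 1.22 and 1.16. Without culture 1 the ratio was 0.47 and passed the threshold, in a fit that gave every probe the same spread. It did not pass without culture 2 (adjusted p = 0.5303) or without culture 3 (adjusted p = 0.6485).

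The exchange of E-cadherin for N-cadherin was put as the difference of both log2 ratios within each culture. Cdh2 minus Cdh1 was -0.29, 0.21 and 0.32 in cultures 1, 2 and 3, with a mean of 0.08 ± 0.32 (SD). An exact two-sided sign permutation test gave p = 0.75, and 3 cultures cannot give less than 0.25. The cultures differed in sign, so these data show no common direction for the exchange. On the arrays with mesenchymal RNA in Cy5 alone the difference was -0.75 and on those with it in Cy3 alone it was 0.90.

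In the RefSeq annotation of GRCm38.p6, Cdh3 and Cdh1 are neighbouring cadherin genes on chromosome 8 with 3 annotated genes between them, a pseudogene and a pair of long non-coding RNAs. Their ratios differed within every culture. Cdh3 minus Cdh1 was -1.69, -1.20 and -1.01, with a mean of -1.30 ± 0.35 (SD, n = 3), a contrast chosen after its values were seen and therefore not tested.

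**Figure D2:**
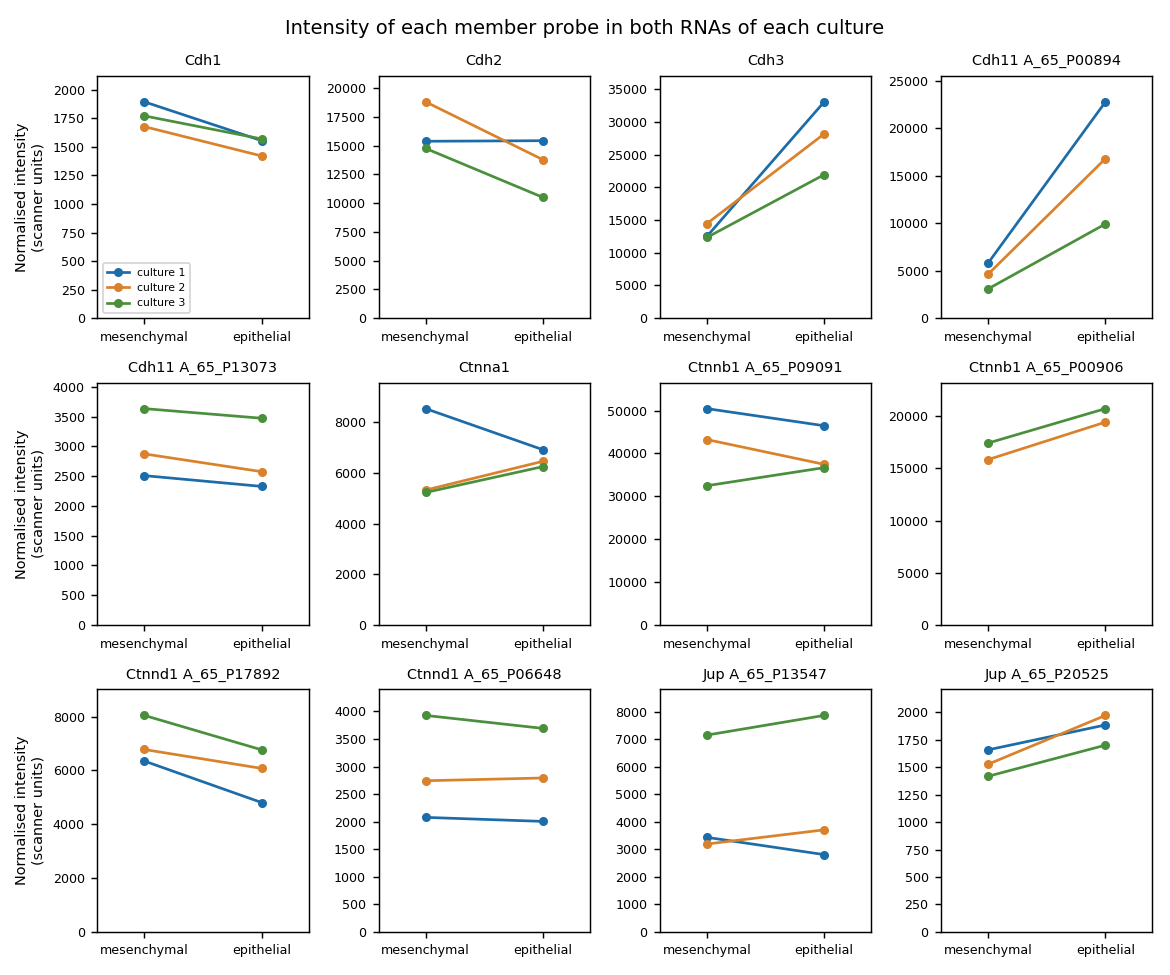
Normalised intensity in scanner units (vertical axis of each panel, from 0) of each member probe in the mesenchymal (left) and epithelial (right) RNA, with a line for each of the 3 cultures. The lines of Cdh3 and Cdh11 A_65_P00894 climb to the epithelial side in every culture, while those of the catenins are flatter. For Ctnna1, Jup A_65_P13547, Ctnnb1 A_65_P09091 and Ctnnd1 A_65_P06648 the lines run in opposite directions between cultures.

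Cdh11 encodes OB-cadherin, a type II cadherin found in mesenchyme and bone-forming cells. Its probe A_65_P00894 had a normalised intensity of 5803, 4632 and 3086 in mesenchymal cells of cultures 1, 2 and 3, against 22767, 16796 and 9922 in epithelial cells. The groups did not overlap, and culture 3 was lowest in both. The log2 ratio was -1.84 ± 0.14 (SD, n = 3, 95% confidence interval -2.04 to -1.64, adjusted p = 0.0002427), or 3.58-fold more RNA in epithelial cells. Among all probes tested it stood at the 0.2 percentile of log2 ratios. The arrays with mesenchymal RNA in Cy5 read -2.57, -2.80 and -3.01, and those with it in Cy3 read -1.37, -0.91 and -0.36. All were below 0, with a gap between orientations that was widest in culture 3.

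The other probe named Cdh11, A_65_P13073, showed no such difference. It read 2508, 2873 and 3633 in mesenchymal cells, against 2327, 2574 and 3471 in epithelial cells, and these ranges overlapped. Its log2 ratio was 0.11 ± 0.05 (SD, n = 3, 95% confidence interval -0.06 to 0.28, adjusted p = 0.4394). The probes differed by -1.95 ± 0.17 in log2 ratio (n = 3), a difference not tested because it was chosen after its values were seen. The annotation on the array of culture 3 with mesenchymal RNA in Cy3 gives A_65_P00894 as the cadL mRNA and A_65_P13073 as 2610005L07Rik, a clone similar to cadherin 11. RefSeq lists 2610005L07Rik as a transcribed pseudogene. Which of the annotations of A_65_P13073 holds was not settled here, and the Cdh11 values above rest on A_65_P00894 alone.

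Cdh6 encodes K-cadherin, a type II cadherin of kidney and other epithelia. The array held 1 expressed-sequence probe, A_65_P08180, described as highly similar to it, which is not a member by name. That probe had a log2 ratio of -0.01 ± 0.13 (SD, n = 3, adjusted p = 0.9534), at 0.13, -0.05 and -0.11 by culture.

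None of the 7 catenin probes passed the threshold, and the 95% confidence intervals of those measured in all 3 cultures ran from -0.45 at the lowest to 0.46 at the highest. The RefSeq promoter table (GRCm38.p6) held windows for Ctnnb1, Jup, Ctnnd1 and Cdh6 of the members. The sequence in front of a start of each of the 3 catenin genes is shown because these genes carry the comparison between beta-catenin, its close relative plakoglobin and p120-catenin. Each runs 5′ to 3′ over the 250 bases before the start, with CG dinucleotides in capitals.
Ctnnb1, chr9:120933150-120933399, plus strand: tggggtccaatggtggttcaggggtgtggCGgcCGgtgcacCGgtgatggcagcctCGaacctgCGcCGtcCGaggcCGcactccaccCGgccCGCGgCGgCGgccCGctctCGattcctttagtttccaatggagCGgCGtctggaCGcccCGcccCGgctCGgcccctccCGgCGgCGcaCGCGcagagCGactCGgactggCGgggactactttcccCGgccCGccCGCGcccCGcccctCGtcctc
Jup, chr11:100397791-100398040, minus strand: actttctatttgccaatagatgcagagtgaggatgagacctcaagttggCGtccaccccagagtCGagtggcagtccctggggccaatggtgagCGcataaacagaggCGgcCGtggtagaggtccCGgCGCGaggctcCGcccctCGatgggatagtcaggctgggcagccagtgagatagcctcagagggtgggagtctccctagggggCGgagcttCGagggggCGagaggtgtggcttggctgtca
Ctnnd1, chr2:84658978-84659227, minus strand: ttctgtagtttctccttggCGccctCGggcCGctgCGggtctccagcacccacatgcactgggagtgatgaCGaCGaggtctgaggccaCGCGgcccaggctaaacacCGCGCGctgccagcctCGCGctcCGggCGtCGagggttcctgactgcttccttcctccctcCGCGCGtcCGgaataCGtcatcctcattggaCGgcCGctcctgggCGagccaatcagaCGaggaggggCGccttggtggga
The Ctnnb1 window held 35 CG and 74.8% G or C, and 2.97% of the 32851 windows in the table held as many CG. The Ctnnd1 window held 26 CG and 66.8% G or C, a count reached by 9.59% of windows. The table held another window for Ctnnb1 and for Ctnnd1, at a different start. The other Ctnnb1 window held 43 CG (0.712% of windows hold as many), and the other Ctnnd1 window held 40% G or C and 3 CG (71% of windows hold as many), so the CG content of Ctnnd1 depends on the start taken. The Jup window held 13 CG and 62% G or C, a count reached by 31.5% of windows, and the median over all windows was 6 CG and 52.4%. The letters CACCTG or, on the other strand, CAGGTG, which Snail-type repressors are known to bind, were in none of these 3 windows and in 17.2% of all windows.

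Ctnnb1 encodes beta-catenin, which links cadherins to alpha-catenin and also acts in the nucleus in Wnt signalling. Its probe A_65_P09091 read 50468, 43253 and 32485 in mesenchymal cells, against 46470, 37462 and 36702 in epithelial cells. The groups overlapped, and the log2 ratio was 0.05 ± 0.20 (SD, n = 3, 95% confidence interval -0.18 to 0.28, adjusted p = 0.8338). The spot was saturated in mesenchymal RNA on 3 arrays and in epithelial RNA on 2, which makes a ratio smaller. The other Ctnnb1 probe, A_65_P00906, was outlier-flagged on an array of culture 1 and rests on cultures 2 and 3. There it read 15831 and 17412 in mesenchymal cells, against 19416 and 20709 in epithelial cells. Its log2 ratio was -0.27 ± 0.03 (SD, n = 2, adjusted p = 0.1513 in limma). With the outlier-flagged spot kept, it was 0.03 over 3 cultures, so this probe's sign rests on leaving culture 1 out.

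Jup encodes plakoglobin, which takes the place of beta-catenin in some junctions and is part of desmosomes. Its probe A_65_P20525 read 1659, 1528 and 1418 in mesenchymal cells, against 1886, 1973 and 1702 in epithelial cells. All mesenchymal values were below all epithelial ones, and the log2 ratio was -0.27 ± 0.09 (SD, n = 3, 95% confidence interval -0.45 to -0.09, adjusted p = 0.07473). Its sign followed the dye, at 0.23, 0.04 and 0.16 on the arrays with mesenchymal RNA in Cy5 and -0.60, -0.78 and -0.68 on those with it in Cy3. Without culture 1 it was -0.32 and passed the threshold, in the fit with the same spread for every probe. It did not pass without culture 2 (adjusted p = 0.4223) or without culture 3 (adjusted p = 0.3591). Probe A_65_P13547 read 3438, 3195 and 7159 in mesenchymal cells, against 2809, 3711 and 7875 in epithelial cells. Culture 1 was on the other side of 0 from cultures 2 and 3, at 0.29, -0.22 and -0.14, and the mean was -0.02 ± 0.27 (SD, n = 3, adjusted p = 0.9467). The Jup probes therefore gave no shared value.

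Ctnnd1 encodes p120-catenin, which binds the part of the cadherin tail next to the membrane. Its probe A_65_P17892 read 6351, 6780 and 8048 in mesenchymal cells, against 4807, 6077 and 6767 in epithelial cells. Mesenchymal RNA was the brighter in each culture, while the groups overlapped, and the log2 ratio was 0.27 ± 0.12 (SD, n = 3, 95% confidence interval 0.08 to 0.46, adjusted p = 0.09155). The arrays with mesenchymal RNA in Cy5 read 0.91, 0.62 and 0.88 and those with it in Cy3 read -0.10, -0.30 and -0.38, so the sign followed the dye here too. Without culture 1 it was 0.20 and passed the threshold, in the fit with the same spread for every probe. It did not pass without culture 2 (adjusted p = 0.198) or without culture 3 (adjusted p = 0.3767). Probe A_65_P06648 read 2077, 2742 and 3928 in mesenchymal cells and 2004, 2792 and 3692 in epithelial cells, with a log2 ratio of 0.04 ± 0.06 (SD, n = 3, adjusted p = 0.8271).

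Ctnna1 encodes alpha-catenin, the link from the cadherin complex to actin. It read 8544, 5327 and 5232 in mesenchymal cells, against 6920, 6464 and 6254 in epithelial cells. The mesenchymal RNA of culture 1 was the highest of the 6 and those of cultures 2 and 3 were the lowest. The log2 ratios were 0.30, -0.28 and -0.26, with a mean of -0.08 ± 0.33 (SD, n = 3, 95% confidence interval -0.39 to 0.24, adjusted p = 0.8138). Without culture 2 the mean was 0.02 and without culture 3 it was 0.01, so its sign rested on single cultures. Without culture 1 it was -0.27 and passed the threshold, in the fit with the same spread for every probe. It did not pass without culture 2 (adjusted p = 0.9874) or without culture 3 (adjusted p = 0.9918).

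Culture 1 stood apart from the others over all probes as well. Across all probes the Pearson correlation of log2 ratios was 0.88 between cultures 2 and 3, 0.59 between cultures 1 and 2 and 0.63 between cultures 1 and 3, where the points are probes that share arrays. Among the members, Ctnna1 and Jup A_65_P13547 had opposite signs in culture 1 and in cultures 2 and 3. Without culture 1, 5875 of the 18192 probes tested were called. Of the 12 member probes 8 were called, 3 higher and 5 lower. With only 2 cultures that fit gave every probe the same spread, so its p-values carry less information about single probes. Without culture 2 the calls were 1163 of 18140 and without culture 3 they were 809 of 19271. Cdh3 and Cdh11 A_65_P00894 were called without each culture in turn.

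Non-overlapping levels in both RNAs were found for 4 of the 11 member probes measured in all 3 cultures (36.4%), against 2396 of 17709 probes (13.5%). They were Cdh3, Cdh11 A_65_P00894 and Jup A_65_P20525, lower in mesenchymal cells, and Cdh1, higher in them. The same sign on all 6 arrays was found for 3 of the 12 member probes, Cdh1, Cdh3 and Cdh11 A_65_P00894, and for 10.3% of all probes.

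Over all probes the SD of the dye effect was 0.48, against 0.31 for the log2 ratio of mesenchymal over epithelial RNA. The dye effect, taken as the log2 ratio of Cy5 over Cy3 with the cells averaged out, was called for 57.7% of all probes and for 8 of the 12 member probes. It was -1.02 for Ctnnb1 A_65_P09091 (adjusted p = 8.001e-06), -0.96 for Cdh11 A_65_P00894 (adjusted p = 0.0003078) and -0.69 for Cdh2 (adjusted p = 5.343e-05). At the other end Jup A_65_P13547 stood at 0.62 (adjusted p = 0.0001121) and Ctnnd1 A_65_P17892 at 0.53 (adjusted p = 0.0002472). For Ctnnb1 A_65_P09091 the arrays with mesenchymal RNA in Cy5 read -0.85, -0.81 and -1.25, and those with it in Cy3 read 1.08, 1.22 and 0.90. Averaging both orientations left 0.05. Cdh1 (0.13, adjusted p = 0.11) and Ctnna1 (0.02, adjusted p = 0.8076) were among the 4 probes with no called dye effect.

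**Figure D3:**
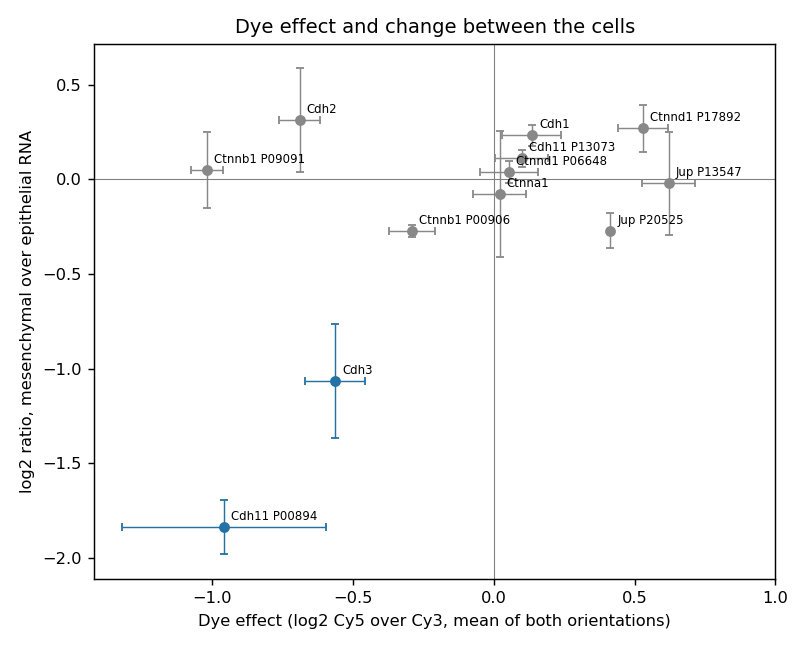
Dye effect in log2 Cy5 over Cy3 (horizontal axis) against the log2 ratio of mesenchymal over epithelial RNA (vertical axis) for the 12 member probes, each as mean with SD over cultures, in blue where the ratio was called and grey otherwise. Cdh11 A_65_P00894 and Cdh3 lie far below 0 on the vertical axis with dye effects of -0.96 and -0.56. Ctnnb1 A_65_P09091 has the strongest dye effect (-1.02) and a ratio of 0.05, both limited by saturated spots.

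A list of other genes with a catenin name and of p120-catenin relatives held 11 genes, of which 7 had a probe. Of their 9 probes, 4 were higher and 2 lower in mesenchymal cells (66.7%, against 11.3% of all probes), with a median log2 ratio of -0.12 against 0.00 over all probes. Both probes of Ctnnal1, an alpha-catenin relative, were higher, at 0.67 ± 0.09 (adjusted p = 0.003952) and 0.58 ± 0.12 (adjusted p = 0.007452). Ctnnbl1, a nuclear protein with catenin-like repeats, was higher at 0.60 ± 0.11 (adjusted p = 0.006047), and Pkp4, a p120-catenin relative, at 0.45 ± 0.13 (adjusted p = 0.01947, SD, n = 3 each). Pkp4 lost its call without culture 2 or culture 3. On the arrays with mesenchymal RNA in Cy5 alone Pkp4 was at 0.11 (adjusted p = 0.2837) and the Ctnnal1 probe A_65_P08279 at 0.23 (adjusted p = 0.05919), neither of them called. Both probes of Pkp2, the desmosomal plakophilin, were lower, at -0.74 ± 0.22 (SD, n = 3, adjusted p = 0.007429) and -0.65 ± 0.07 (SD, n = 2, adjusted p = 0.01525 in limma).

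Nectins, which start adherens junctions, and proteins that tie junctions to actin gave 31 probes of 19 genes. Of these, 6 were lower and 2 higher in mesenchymal cells (25.8%, against 11.3% of all probes), with a median log2 ratio of -0.16. Zyx (zyxin) and Ajuba, LIM-domain proteins of junctions and focal adhesions, were lower at -1.30 ± 0.25 (adjusted p = 0.001453) and -0.77 ± 0.18 (adjusted p = 0.004787, SD, n = 3 each). On the arrays with mesenchymal RNA in Cy3 alone Ajuba was at -0.29 and not called (adjusted p = 0.2634). The Zyx spot was saturated for epithelial RNA on 5 arrays, which makes its difference smaller. Ssx2ip, which binds afadin, was lower at -1.02 ± 0.19 (adjusted p = 0.002048), but its dye effect was -1.22 and the arrays with mesenchymal RNA in Cy3 alone gave 0.20. One probe of Vcl (vinculin) was lower at -0.56 ± 0.17 (SD, n = 3, adjusted p = 0.01235) and lost its call without culture 2 or culture 3. Its other probe was at -0.20 and was not called. Without culture 3 this list had 3 lower and 0 higher probes, and without culture 2 it had 5 lower and 0 higher.

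Genes of cadherin turnover and of junction kinases and phosphatases had 1 of 34 probes higher and 1 lower (5.88%, below the 11.3% of all probes). The higher one was Ptpn1, a phosphatase known to act on the cadherin complex (0.44 ± 0.05, adjusted p = 0.01253), and the lower one Ptprk, a receptor phosphatase of cell contacts (-0.53 ± 0.09, adjusted p = 0.008143, SD, n = 3 each). Neither was called without culture 3, and Ptpn1 was not called without culture 2.

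The beta-catenin destruction complex and nuclear partners had 2 of 34 probes higher and 2 lower (11.8%, near the 11.3% of all probes). The Groucho-type co-repressors went both ways, with Tle2 higher at 0.90 ± 0.20 (SD, n = 2, adjusted p = 0.009295 in limma) and Tle4 lower at -0.41 ± 0.09 (SD, n = 3, adjusted p = 0.0206). The casein kinase genes did so too, with a probe of Csnk1a1 higher at 0.41 ± 0.05 (adjusted p = 0.01727) and a probe of Csnk1e lower at -0.45 ± 0.13 (adjusted p = 0.01991, SD, n = 3 each). Their other probes were not called, at -0.11 for Csnk1a1 and -0.31, -0.26 and 0.28 for Csnk1e, and the arrays with mesenchymal RNA in Cy5 alone gave -0.45 for the called Csnk1a1 probe. On those with it in Cy3 alone the called Csnk1e probe was at -0.35 and missed the threshold (adjusted p = 0.06342). Without culture 3 no probe of this list was called, and without culture 2 Tle4 and Csnk1a1 lost their calls. Tle2 had no value in culture 1 and so could not be tested without culture 2 or culture 3.

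Known repressors of Cdh1 and their partners had 2 of 19 probes higher and 0 lower (10.5%, near the 11.3% of all probes), with a median log2 ratio of 0.09. Snai1, which encodes the zinc finger repressor Snail, was higher at 0.65 ± 0.07 (adjusted p = 0.003749), beside Cdh1 at 0.23 in the same RNAs. Sirt1, a deacetylase, was higher on 1 probe at 0.42 ± 0.12 (adjusted p = 0.0236, SD, n = 3 each), lost its call without culture 2 or culture 3 and on the Cy5 arrays alone (0.21, adjusted p = 0.08256), and had its other probe at 0.15. Of the 17 other listed type I, type II and atypical cadherins, 1 was tested. It was Cdh5, the cadherin of endothelium, at -0.24 ± 0.11 (SD, n = 3, adjusted p = 0.1192).

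**Figure D4:**
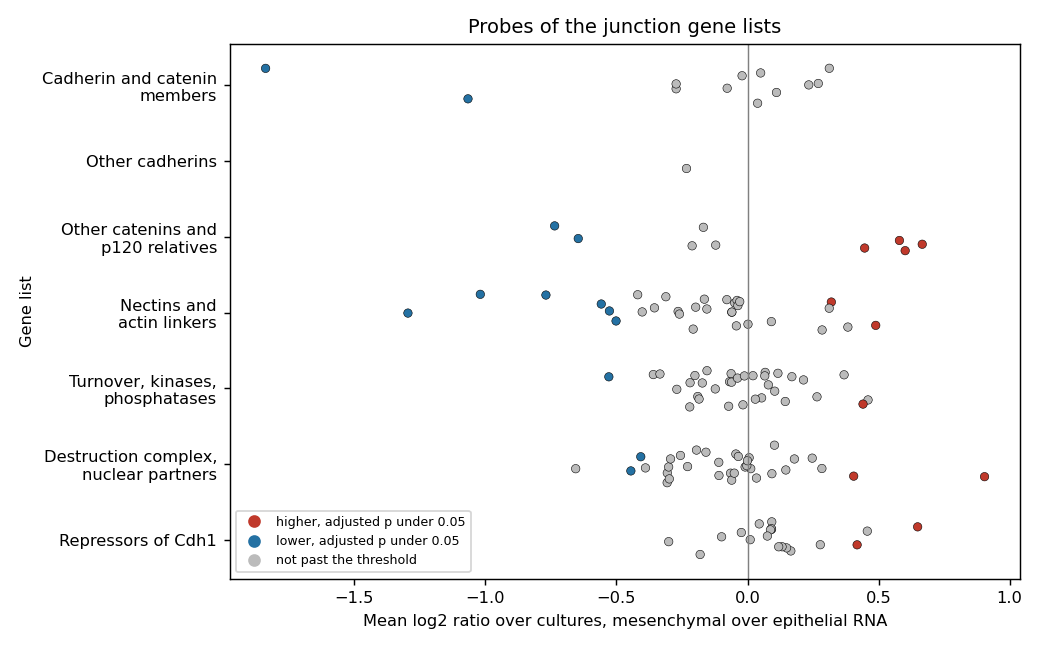
Mean log2 ratio of mesenchymal over epithelial RNA over cultures (horizontal axis) for each tested probe of the gene lists (vertical axis), coloured by whether it was higher, lower or not past the threshold. Of the list of other catenins and p120 relatives 4 probes are called higher and 2 lower, and of the nectins and actin linkers 2 higher and 6 lower.

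Other probes followed the same profile over the 6 RNAs, 3 mesenchymal and 3 epithelial, as the called Cdh11 probe. Among 9956 named probes measured in all cultures, those most like it by Pearson correlation were Myo1c (r = 0.998), Tead1 (0.997), Mdfic (0.996), Zfp664 (0.996) and Slc7a1 (0.994). Their log2 ratios ran from -1.44 for Myo1c, which encodes an unconventional myosin, to -0.46 for Zfp664. The profile of Cdh1 was most like those of Septin4 (0.994), Sdhb (0.994), Prmt1 (0.992), Rida (0.992) and Tnfrsf12a (0.991), with log2 ratios from 0.23 to 0.73. With 6 points that share arrays in pairs, these correlations are descriptions of the likeness only.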

How the data were processed

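Per the file headers, spots were read with Feature Extraction from Agilent. The mean and background intensities are linear values as deposited. The authors' deposited value table and the scanner's log ratios are log10, and each column of the table equals the mesenchymal over epithelial difference of a culture's 2 log10 ratios divided by 2 (r = 1, medians 0.003973, -0.0123 and -0.003785). The submitters' processing notes list limma without a version. In the labels each RNA stands with both dyes, so orientation came from the names of the deposited arrays.

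Intensities were corrected with normexp (offset 50) and normalised by loess within arrays (limma 3.58.1, R 4.3.3), control spots having weight 0. Arrays were turned to mesenchymal over epithelial and both of a culture averaged, which pairs the RNAs by culture, as the design text describes. Spots with an outlier flag were dropped, and a probe needed 2 cultures and the well-above-background flag for the same RNA on 4 of 6 arrays, which removed 43 probes. Of the 162 negative control spots, 18.5% to 81.5% had this flag, so the filter removed little. On the array of culture 3 with mesenchymal RNA in Cy3 the scanner software used another background method and annotation version, and 1639 probes were outlier-flagged there, against 61 to 467 elsewhere. Log2 ratios and dye effects were tested with lmFit and eBayes over 20185 probes, 2476 of them with 2 cultures. Levels are intensities of separate channels after loess and Aquantile scaling, averaged over dyes. Confidence intervals are at 95% and the number of cultures limits precision.

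The members and lists were chosen with earlier results of these data known. Every member probe was named, and from each list the called probes of at most 4 genes by size of change, or the 2 brightest genes where fewer than 2 were called, with the 5 named genes most like Cdh11 and Cdh1. Listed genes were found through RefSeq names (GRCm38.p6) by gene ID (9946 probes), symbol (95) or synonym (1335), and 8995 probes stayed unnamed. The steps were tested on simulated data. Alternatives changed the background, normalisation, filter, flags, saturated spots, features, dye swap, variance model and cultures.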

Additional observations from a re-analysis of the deposited data

How the results depend on the processing

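Cdh3 was called in 17 of 19 alternatives and Cdh11 A_65_P00894 in 18 of 19. Leaving out a culture moved Cdh3 between -1.18 and -0.90 and Cdh11 between -1.92 and -1.77, the count of called probes between 809 and 5875, that of member probes between 2 and 8, and Cdh2 minus Cdh1 between -0.04 and 0.26. Without pairing the RNAs of a culture (no replicate block) 256 probes (115 higher, 141 lower) and 0 member probes were called, with adjusted p-values of 0.05852 for Cdh3 and 0.08063 for Cdh11, and among the named probes of the lists only Zyx was called. With the 6 arrays and the culture as a random block, 4 of 12 member probes were called, beside 2830 of 20185 probes tested. The arrays with mesenchymal RNA in Cy5 alone gave 8211 called of 20300 tested probes, with 8 of the 12 member probes. Cdh2 minus Cdh1 was -0.75 there. The arrays with it in Cy3 alone gave 6898 called of 20264 tested probes, with 5 of the 12 member probes. There Cdh2 minus Cdh1 was 0.90. Signs turned by dye orientation: in the Cy5 arrays Cdh2 (-0.38), Ctnnb1 A_65_P09091 (-0.97), Jup A_65_P13547 (0.60), Jup A_65_P20525 (0.14) and Csnk1a1 (-0.45), and in the Cy3 arrays Ctnnb1 A_65_P00906 (0.12), Ctnnd1 A_65_P17892 (-0.26), Ctnnd1 A_65_P06648 (-0.0144) and Ssx2ip (0.20). Ctnnb1 A_65_P00906 also turned in the authors' value table (0.0051) and with outlier flags ignored (0.0268). Leaving out a culture turned Ctnna1 (-0.2684 to 0.0232), Ctnnb1 A_65_P09091 (-0.0285 to 0.1632) and Jup A_65_P13547 (-0.1767 to 0.077). A filter against the 95th percentile of the negative controls was chosen after seeing the data and moved no count by over 1.5 times. Where no construction above shows it, the cause was not tested.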

Other observations

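Besides the members and the uncalled Cdh5 probe given above, 21 probes were described as cadherins or as similar to them, and 20 of them were tested. Of these 20, 2 were higher and 3 lower in mesenchymal cells, beside 11.3% called among all probes. The 21 probes were chosen after their values were seen. The protocadherins are cadherin relatives with other cytoplasmic tails. Pcdhgc5 was higher, with a log2 ratio of 0.59 ± 0.16 (SD, n = 3, adjusted p = 0.009253 in limma). The 3 probes of Pcdh7 disagreed, with A_65_P08243 higher at 0.52 ± 0.10 (adjusted p = 0.009101), A_65_P11421 lower at -0.70 ± 0.36 (adjusted p = 0.02623) and A_65_P15265 at 0.30 ± 0.34 (adjusted p = 0.2486, SD, n = 3 each). Cdh23, known for the hair cells of the inner ear, was lower at -0.32 ± 0.05 (adjusted p = 0.03549), on a dim probe at percentile 8.2 of brightness. An expressed sequence weakly similar to protocadherin 10 was lower at -0.48 ± 0.22 (adjusted p = 0.03189). A probe that an annotation version gives as similar to Cdh11 exon 3 with a pseudogene, A_65_P05758, stood at -0.01 ± 0.10 (SD, n = 3, adjusted p = 0.9516 in limma). Another of that description, A_65_P11431, was at percentile 1 of brightness over all probes, and no ratio is read from it.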
